A study of Homo sapiens with 6 samples.

Results

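The genes described here make and use glutathione and thioredoxin, clear peroxides and superoxide, reduce quinones and carbonyls, or belong to the NRF2 pathway that controls many of these functions. Their 39 symbols were given as a list, and 38 of them were matched to an identifier among the 58174 genes of the deposited table. SOD2, the manganese superoxide dismutase of mitochondria, was not matched, since no row had the identifier its symbol was paired with, and no level is given for it. Whether the table holds it under another identifier was not settled. Of the 38 genes, 37 had a mean of at least 0.5 TPM in at least 1 group and were compared. TPM, a transcript's share of all transcripts, takes transcript length into account.

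RNA was sequenced from AGS, a cell line of human gastric adenocarcinoma, to ask which transcripts differ when FTO, a demethylase of N6-methyladenosine in RNA, is depleted. The si-NC group had 3 libraries of cells that received negative control oligonucleotides, and the si-FTO group had 3 libraries of cells that received siRNA duplexes against FTO. The genotype field calls the control libraries wild type and gives FTO-/- for the others, whereas the titles and the study's methods describe siRNA, and no clone is named. The methods also speak of stable lines made with lentivirus, and their RNA sequencing section names AGS cells with or without FTO depletion and not the means. The study's methods speak in general of at least 3 independent experiments, and do not say for the RNA sequencing whether the libraries of a group came from separate cultures. Each value is the authors' mean of a group, so there was no error between libraries and no test was possible. TPM keeps no record of read numbers, so the depth is unknown.

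NRF2, encoded by NFE2L2, is a transcription factor that binds antioxidant response elements together with small MAF proteins. In unstressed cells KEAP1 holds NRF2 and presents it to a ubiquitin ligase for degradation, and oxidants or electrophiles that react with KEAP1 let NRF2 accumulate, so its activity is set largely at the protein level. Its known target genes include those for quinone reduction, glutathione synthesis, the thioredoxin system, heme breakdown and the supply of NADPH. Glutathione and thioredoxin pass electrons from NADPH to peroxidases, and glutathione transferases join glutathione to reactive compounds. Many gastrointestinal tumours and cell lines express these enzymes strongly.

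The depleted gene was examined first. FTO had a mean of 33.1 TPM in si-NC against 7.27 TPM in si-FTO, 21.9% of the si-NC level. Its log2 ratio was -2.05, where a log2 ratio divides the si-FTO mean by the si-NC mean after 1 TPM is added to both, a scale that understates differences between low values. The level of FTO was thus lower in the group labelled as depleted.

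The label of the cell line was then compared with marker genes, and the groups went against it in part. Epithelial keratins were much lower in si-NC: KRT8 had 10.8 TPM in si-NC against 3139 TPM in si-FTO, and KRT18 had 52.1 and 1851 TPM. KRT7 was listed at 0 in si-NC and had 253 TPM in si-FTO, and the epithelial transcription factor ELF3 had 0.115 and 93.3 TPM. EPCAM, an adhesion protein of epithelia, was low in both groups, at 1.22 TPM in si-NC against 0.113 TPM in si-FTO, and CDH1, E-cadherin, had 3.67 and 0.685 TPM. The 12 epithelial markers summed to 69.5 TPM in si-NC against 5357 TPM in si-FTO, with KRT18 as the most abundant in si-NC and KRT8 in si-FTO. Of the 9 compared, 7 were higher in si-FTO by a log2 ratio of at least 1 and 1 was lower. These are 77.8% and 11.1%, beside 11.4% and 17% of all genes compared. KRT7, ELF3, CLDN3 and CLDN4 reached 0.5 TPM only in si-FTO, so they could be compared only because they were higher there. EPCAM reached it only in si-NC. With at least 0.5 TPM in both groups, 3 of 4 were higher and 1 lower, beside 9.42% and 11.8% of all such genes.

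Of the 14 gastric and intestinal markers, TFF1, TFF3, GKN1, CDX1 and VIL1 were listed at 0 in both groups, and 5 were compared. The transcription factors CDX2 and GATA4 had 18.1 and 36.96 TPM in si-NC and were listed at 0 in si-FTO, while GATA6 had 20.3 and 2.54 TPM. The other 2 of the 5 compared stood the other way. MUC1, a membrane mucin, had 1.71 TPM in si-NC against 31.0 TPM in si-FTO, and the transcription factor HNF4A had 0.0255 and 1.09 TPM. By a log2 ratio of at least 1, 40% were thus higher and 60% lower, beside 11.4% and 17% of all genes. CDX2 and GATA4 reached 0.5 TPM only in si-NC and HNF4A only in si-FTO, so the filter fixed their directions. With at least 0.5 TPM in both groups, 1 of 2 was higher and 1 lower, beside 9.42% and 11.8% of all such genes. The 14 gastric and intestinal markers summed to 77.1 TPM in si-NC against 35.2 TPM in si-FTO, with GATA4 as the most abundant in si-NC and MUC1 in si-FTO.

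Some genes known from neurons were high in si-NC: UCHL1 had 303 TPM, NEFL 62.7 TPM and NEFM 49.9 TPM. In si-FTO, UCHL1 had 0.0204 TPM, NEFL and NEFM were listed at 0, and STMN2 was listed at 0 in both groups. The 8 neuronal markers summed to 449 TPM in si-NC against 29.3 TPM in si-FTO, with UCHL1 as the most abundant in si-NC and ENO2 in si-FTO. ENO2 and TUBB3 were present in both groups, at 15.8 and 10.003 TPM in si-NC and 13.6 and 5.73 TPM in si-FTO, and SNAP25 stood the other way, at 0.316 and 9.72 TPM. The 8 fibroblast markers summed to 456 and 798 TPM, most of it VIM, at 439.9 TPM in si-NC against 752 TPM in si-FTO. Of the 6 compared, 2 were higher by a log2 ratio of at least 1, COL1A1 at 10.3 and 36.4 TPM and PDGFRB at 0.370 and 5.34 TPM. The lower gene was 1, COL3A1, at 2.18 and 0.361 TPM. These are 33.3% and 16.7%, beside 11.4% and 17% of all genes, so the share lower was near that of all genes. PDGFRB reached 0.5 TPM only in si-FTO and COL3A1 only in si-NC. With at least 0.5 TPM in both groups, 1 of 3 was higher and 0 lower, beside 9.42% and 11.8%. COL1A2 was at or near 0 in both groups. The 8 blood cell markers summed to 6.24 and 8.55 TPM with PTPRC, the common leukocyte antigen, listed at 0 in both groups. The 7 hepatocyte markers summed to 0.292 and 0.0571 TPM.

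These markers separated the groups in the same samples as every value given here, and their part in the results was not tested. Whether both groups were the same cells apart from FTO depletion was not tested, and a difference between the cells and an effect of the depletion cannot be told apart in any si-FTO to si-NC ratio given here. In bulk RNA, fewer cells of a type and less RNA per cell cannot be told apart. The keratin values are also uncertain, because 39.2% of the 50-base words of the KRT8 transcript and 36.7% of those of KRT18 occur in transcripts of other genes, mostly pseudogenes.

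**Figure D1:**
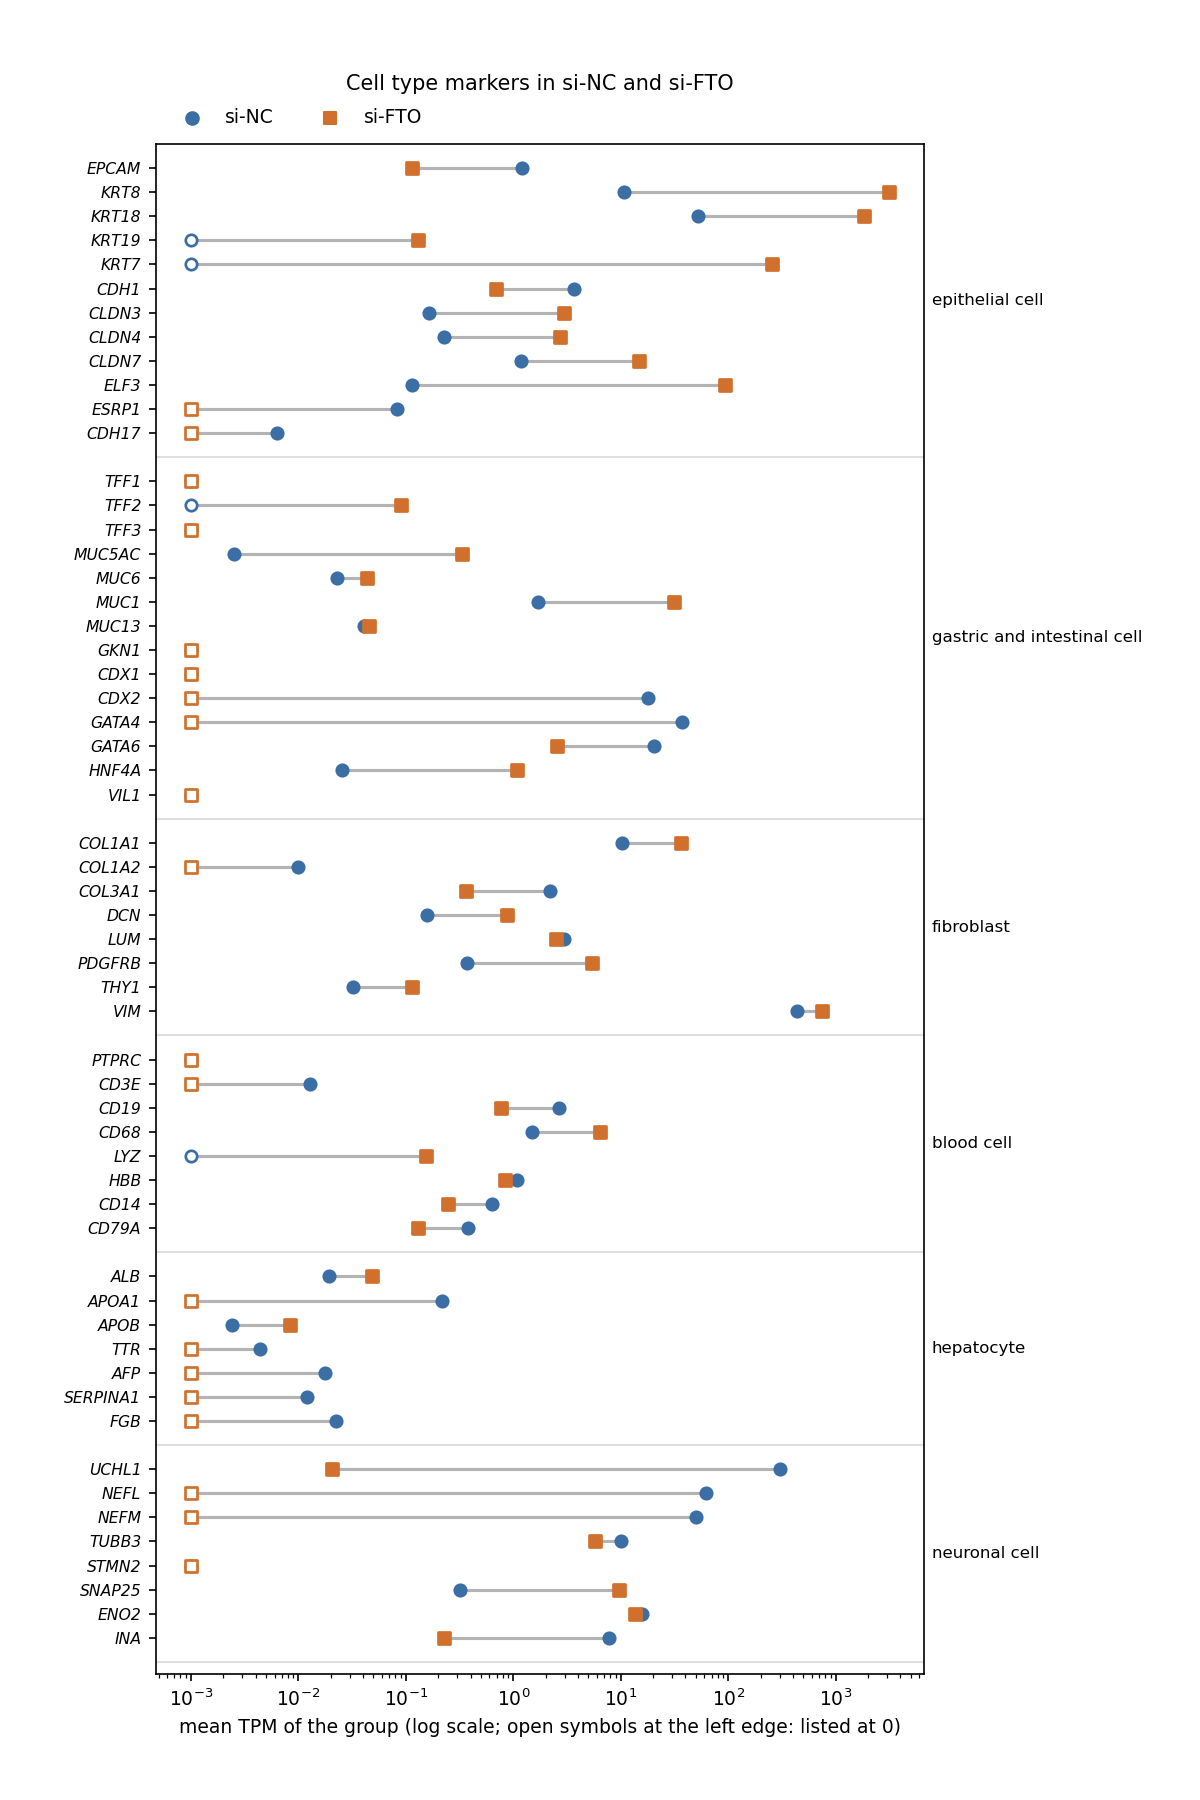
Mean TPM (log axis) of each cell type marker in si-NC (circles) and si-FTO (squares), joined by a grey line and grouped by cell type. Open symbols stand for genes listed at 0, and where only a square is seen it covers the circle. KRT8 lay at 10.8 TPM in si-NC against 3139 TPM in si-FTO, and UCHL1 at 303 and 0.0204 TPM.

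Because many of the genes are described as NRF2 targets, their promoters were searched for the core of the antioxidant response element, TGACNNNGC, and for GCNNNGTCA, the same letters read from the other strand. The windows came from RefSeq on GRCh38.p14 and ran from 250 bases before to 50 bases after a start site. Such a window was given for 30 of the 39 genes, SOD2 included, and not for AKR1B10, GSR, GSS, HMOX1, MGST2, PRDX1, PRDX6, SLC7A11 and SOD1. Of the 30 genes, 8 held a match, namely GCLM, GPX2, GSTO1, GSTP1, KEAP1, ME1, MGST1 and TXNRD1. Over the whole collection, 4687 of 35116 windows, or 13.3%, held a match, and 4384 of 27305 genes, or 16.1%, had at least 1 such window.

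The stretches shown are those of TXNRD1, which was higher in si-FTO by a log2 ratio of at least 1, of GSTP1, which was lower by that size, and of ME1, GCLM and KEAP1, which lay between. Further matches of TXNRD1, ME1 and KEAP1 are not shown. Each stretch gives the matched letters in capitals with 15 bases on either side, on the strand of the gene, and lies before the start site. The TXNRD1 stretches belong to separate start sites and lie at chr12:104215665-104215703 and chr12:104286915-104286953, both on the plus strand. GSTP1 is at chr11:67583731-67583769 on the plus strand, ME1 at chr6:83431165-83431203, GCLM at chr1:93909441-93909479 and KEAP1 at chr19:10502779-10502817, these 3 on the minus strand.
TXNRD1, upstream start: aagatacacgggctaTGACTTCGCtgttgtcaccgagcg
TXNRD1, downstream start: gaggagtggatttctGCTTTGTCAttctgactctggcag
GSTP1: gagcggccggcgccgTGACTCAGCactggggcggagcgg
ME1: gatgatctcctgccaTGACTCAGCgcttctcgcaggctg
GCLM: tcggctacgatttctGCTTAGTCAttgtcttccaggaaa
KEAP1: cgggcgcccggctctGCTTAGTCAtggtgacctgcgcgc

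The match of GSTP1 began 66 bases before its start and that of GCLM 34 bases before. Of the genes higher in si-FTO by a log2 ratio of at least 1, 11 had a window and 2 of these, TXNRD1 and MGST1, held a match. A match describes letters and is not a binding site, and a window without one says nothing of NRF2 there.

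Taken over all roles, 12 of the 37 genes compared, or 32.4%, were higher in si-FTO by a log2 ratio of at least 1, and 3, or 8.11%, were lower by that size. Among all 20493 genes compared, 11.4% were higher and 17% were lower by the same rule. The list was chosen with earlier results of these data known, so these shares describe it and are not a test. The 12 were NQO1, AKR1B10, AKR1C1, AKR1C2, AKR1C3, TXNRD1, OSGIN1, PRDX5, GSTM3, GSTM4, MGST1 and MGST3, and the 3 were GPX3, GSTP1 and HMOX1. AKR1B10, AKR1C1, AKR1C2 and AKR1C3 reached 0.5 TPM only in si-FTO, so they could be compared only because they were higher there. Among the 33 genes with at least 0.5 TPM in both groups, 8 were higher and 3 lower, or 24.2% and 9.09%. The same shares among all 15535 such genes were 9.42% and 11.8%.

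The median log2 ratio of the 37 genes was 0.39, and that of all genes compared was -0.20. Between the groups, the median ratio over 13781 genes with at least 1 TPM in both was -0.17 on the log2 scale. Relative to the median of all genes compared, the median of the 37 genes lay 0.59 higher, and it lay 0.63 higher after that ratio was scaled away and 0.43 higher with quantile normalization. With at least 0.5 TPM in both groups, the median of the 33 genes left lay 0.43 above that of all such genes. With no filter on low values, that of 38 genes lay 0.36 above a median of 0 over all 58174 genes, many of them listed at 0. Of the 37 ratios, 27 were above 0 and 10 below it, beside a median of -0.20 over all genes compared. AKR1B10, AKR1C1, AKR1C2 and AKR1C3 reached 0.5 TPM only in si-FTO, so their ratios could only be above 0. The ratios of PRDX3 and TXN turned sign under another scaling.

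In level, these transcripts summed to 6688 TPM in si-NC against 8099 TPM in si-FTO, or 0.669% and 0.81% of all TPM. Peroxiredoxins made up the largest part, with 3005 TPM in si-NC against 4132 TPM in si-FTO. At least 10 TPM was reached by 30 of the 38 genes in si-NC against 31 in si-FTO. Hence most of the list was well expressed in both groups, and the genes under 1 TPM numbered 6 in si-NC against 2 in si-FTO.

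**Figure D2:**
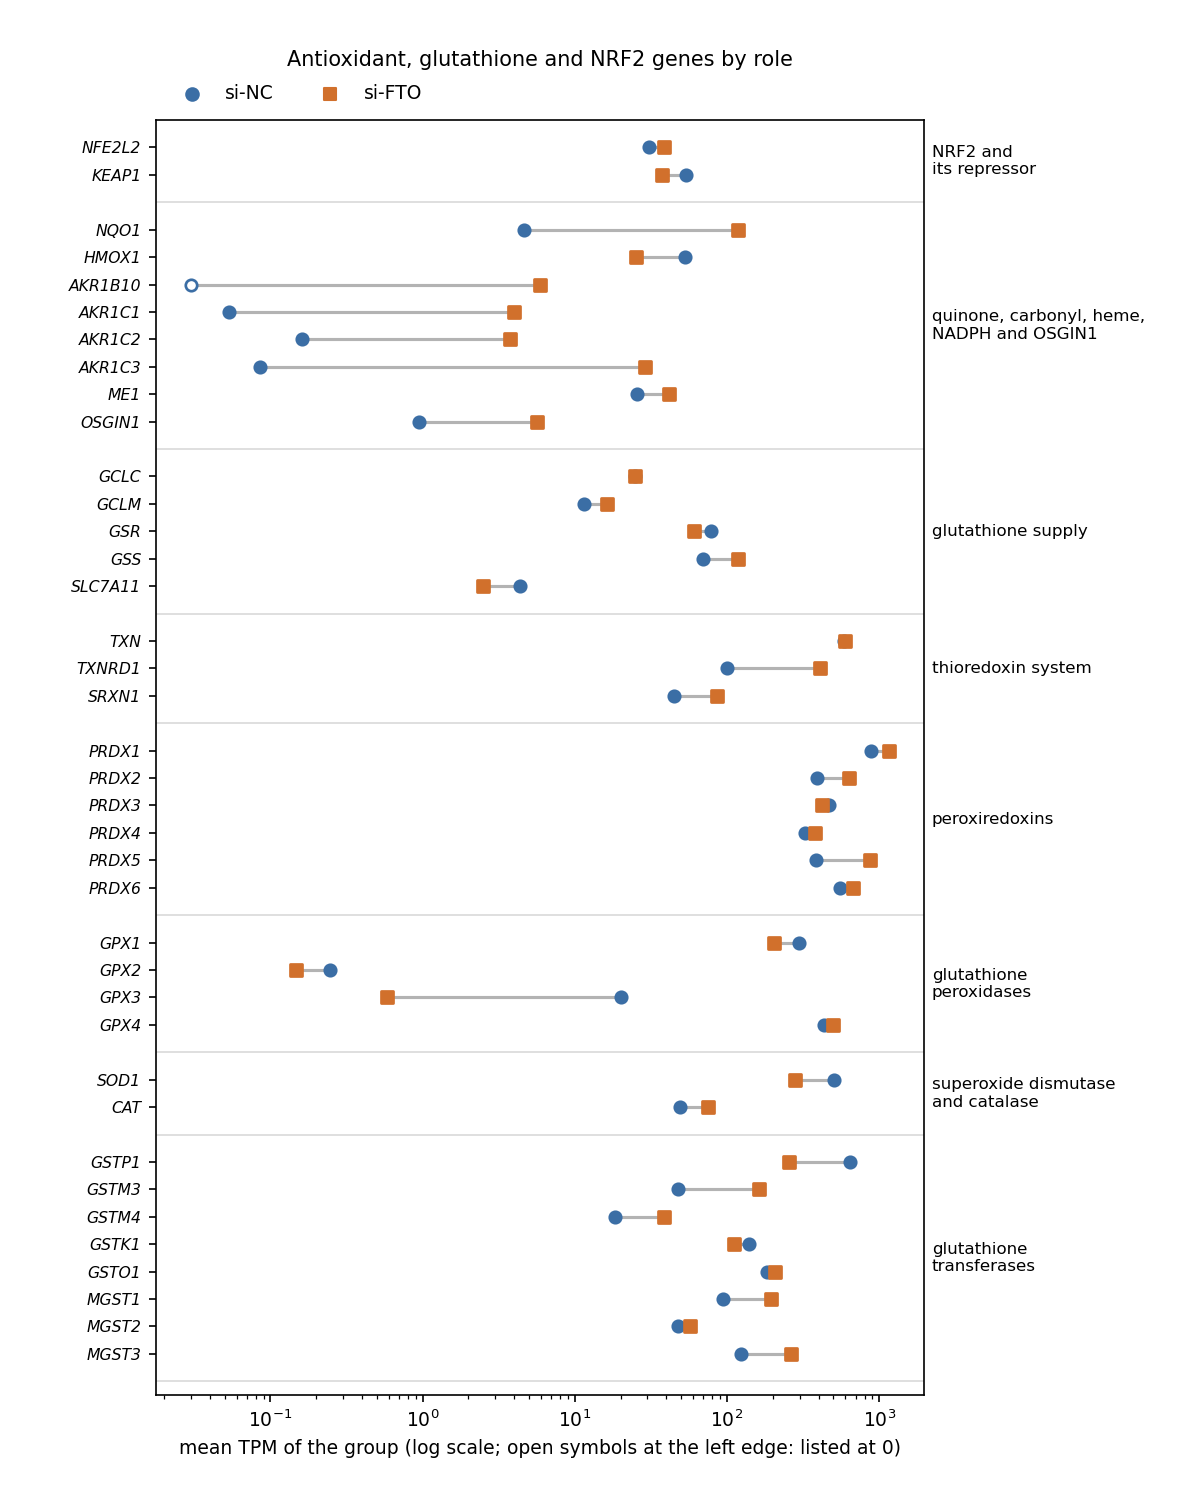
Mean TPM (log axis) of the 38 genes in si-NC (circles) and si-FTO (squares), joined by a grey line and grouped by role. The open circle stands for AKR1B10, listed at 0 in si-NC, and the squares of GCLC and TXN cover their circles. The longest lines are those of the aldo-keto reductases, NQO1 and GPX3.

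**Figure D3:**
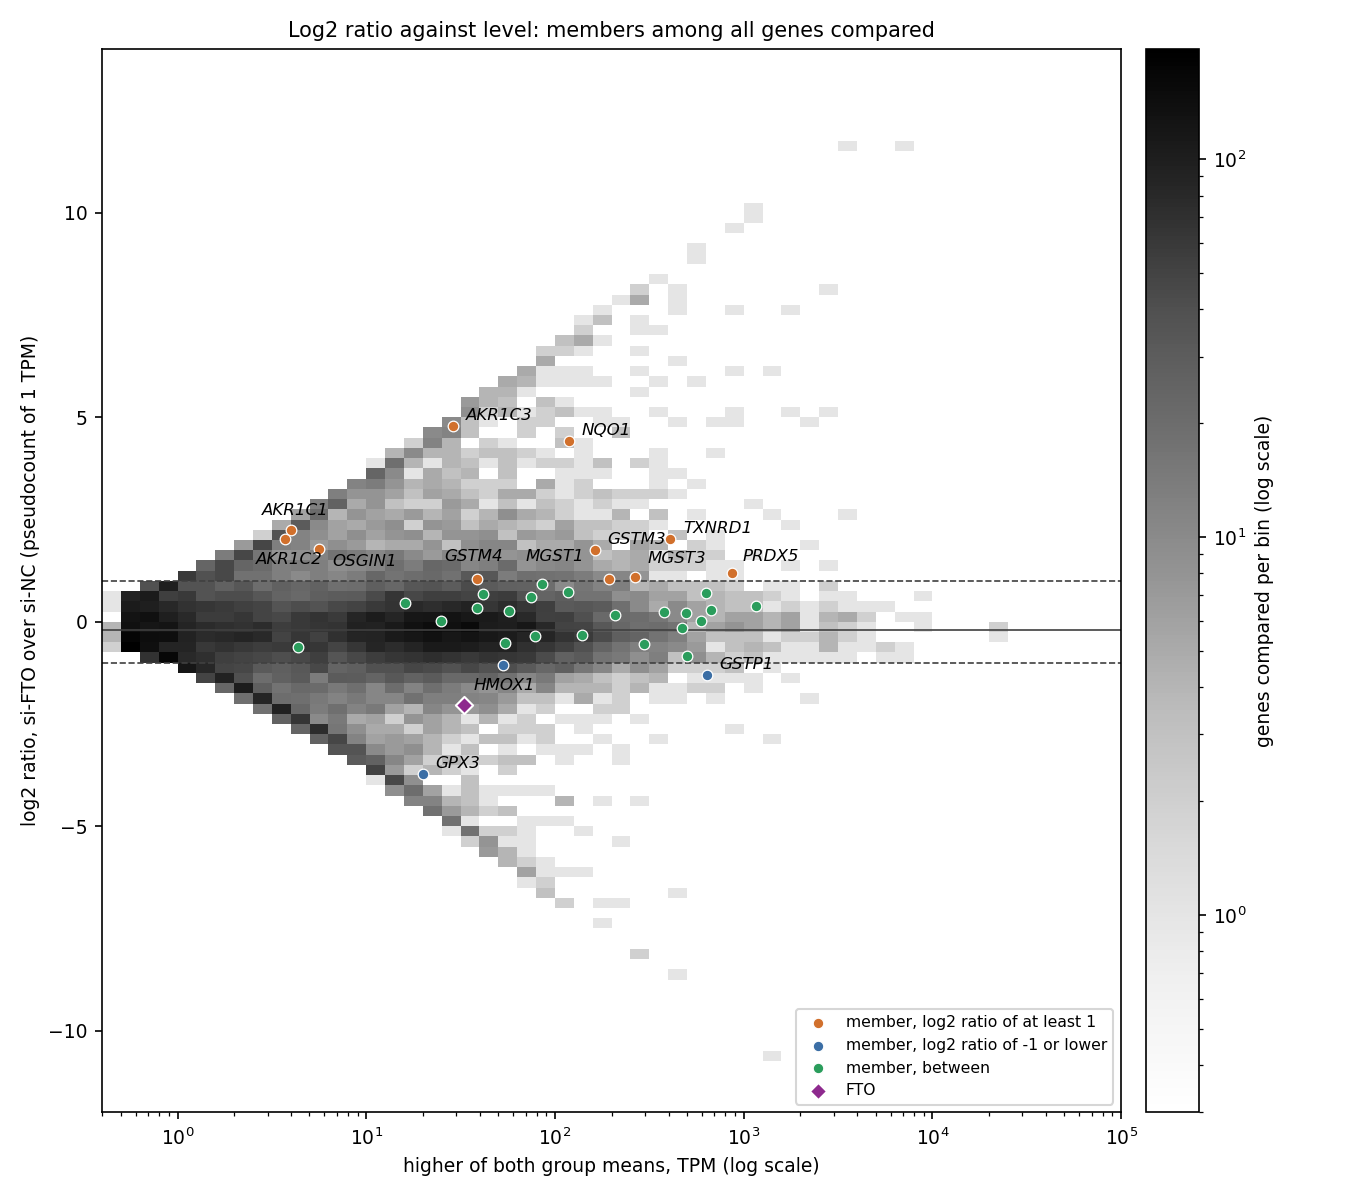
Log2 ratio of si-FTO to si-NC against the higher of both group means in TPM (log axis), with the genes of the list as coloured points and the number of all 20493 genes compared per bin in grey. Dashed lines mark log2 ratios of 1 and -1 and the solid line marks the median of all genes, -0.20. AKR1B10, listed at 0 in si-NC, has no point, and NQO1 stands at 4.42 and GPX3 at -3.73.

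The regulator and its repressor both differed by less than a log2 ratio of 1. NFE2L2, the gene of NRF2, had 30.6 TPM in si-NC against 38.7 TPM in si-FTO, with a log2 ratio of 0.33. KEAP1, the adaptor that targets NRF2 for degradation, had 54.1 and 37.5 TPM, a log2 ratio of -0.52. NFE2L2 thus lay below KEAP1 in si-NC, and the levels were nearly equal in si-FTO. As a ratio of mean TPM, NFE2L2 over KEAP1 was 0.564 in si-NC against 1.03 in si-FTO, with no error known. NFE2L2 lies at chr2:178083395-178257484 on the minus strand of GRCh37, and KEAP1 at chr19:10596801-10614234, also on the minus strand.

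The enzymes of quinones, carbonyls, heme and NADPH held the largest ratios of the list. NQO1, a quinone reductase that uses NADH or NADPH and is a widely used readout of NRF2, had 4.60 TPM in si-NC against 119 TPM in si-FTO, 25.8-fold higher. Its log2 ratio of 4.42 was the 198th highest of the 20493 genes compared, above 99.0% of them. NQO1 lies at chr16:69740899-69760571 on the minus strand of GRCh37. HMOX1, heme oxygenase, which is induced by NRF2 and also by heme itself, stood in the opposite direction. It had 53.2 TPM in si-NC against 25.2 TPM in si-FTO, 2.11-fold lower, with a log2 ratio of -1.05 that was -0.88 after median-ratio scaling. In si-NC, HMOX1 was the most abundant of these 8 genes with 62.9% of their summed TPM, whereas in si-FTO NQO1 was, with 50.9%.

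ME1, the cytosolic malic enzyme that forms NADPH, had 25.5 TPM in si-NC against 41.3 TPM in si-FTO, 1.62-fold higher. OSGIN1, an oxidative stress-induced growth inhibitor, was low, with 0.948 and 5.64 TPM. The log2 ratios were 0.67 for ME1 and 1.77 for OSGIN1, so that only the latter passed a size of 1.

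The aldo-keto reductases of the list, which reduce aldehydes, ketones and steroids, were nearly absent from si-NC. AKR1C3, an enzyme of steroid and prostaglandin metabolism, had 0.0856 TPM in si-NC against 28.9 TPM in si-FTO, with a log2 ratio of 4.78 that ranked 156 of the 20493. With values this low in si-NC the ratio depends on the amount added before the logarithm: it was 7.29 for AKR1C3 with 0.1 TPM added and 8.40 with nothing added. AKR1C1 had 0.0537 TPM in si-NC against 3.99 TPM in si-FTO, with a log2 ratio of 2.24 that was 4.73 and 6.21 under these settings. AKR1C2 had 0.160 and 3.73 TPM, and its log2 ratio of 2.03 was 3.88 and 4.54. AKR1B10, a reductase of retinal and other aldehydes, was listed at 0 in si-NC and had 5.94 TPM in si-FTO. Its relative AKR1B1, aldose reductase, chosen after its values were seen, was abundant in both groups, at 349.7 TPM in si-NC against 296 TPM in si-FTO.

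AKR1C1, AKR1C2 and AKR1C3 lie side by side on chromosome 10 of GRCh37, at chr10:5005445-5025475, chr10:5029967-5060223 and chr10:5077546-5149878, with AKR1C2 on the minus strand. Their coding sequences are each 972 bases long. AKR1C1 and AKR1C2 are identical at 98.05% of bases, AKR1C1 and AKR1C3 at 91.5%, and AKR1C2 and AKR1C3 at 91.05%. The likeness is shown by bases 457 to 516 of each coding sequence, all in exon 5 of the 9 exons, with the 5 positions that differ among the 3 genes in capitals. These lie at chr10:5011023-5011082 for AKR1C1, chr10:5040871-5040930 for AKR1C2 and chr10:5141528-5141587 for AKR1C3.
AKR1C1: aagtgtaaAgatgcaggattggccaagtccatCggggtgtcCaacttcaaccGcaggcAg
AKR1C2: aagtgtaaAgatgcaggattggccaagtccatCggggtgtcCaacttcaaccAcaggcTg
AKR1C3: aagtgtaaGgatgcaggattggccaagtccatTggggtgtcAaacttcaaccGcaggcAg

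Over these 60 bases, AKR1C1 differs from AKR1C2 at 2 and from AKR1C3 at 3. Of the 50-base words of the AKR1C2 transcript, 45.7% also occur in AKR1C1, so reads could be split between them and their separate values are uncertain. Summed, the 3 genes had 0.2995 TPM in si-NC against 36.6 TPM in si-FTO. AKR1C4 of the same cluster, chosen after its values were seen, was listed at 0 in si-NC and had 0.00603 TPM in si-FTO.

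Genes that supply glutathione differed by less than a log2 ratio of 1 in each of 5 cases. GCLC, the catalytic subunit of glutamate-cysteine ligase, had 24.7 TPM in si-NC against 24.8 TPM in si-FTO, with a log2 ratio of 0.01. GCLM, the modifier subunit of that ligase and a known NRF2 target, had 11.5 and 16.1 TPM, a log2 ratio of 0.45. The ratio of catalytic to modifier transcript was 2.14 in si-NC against 1.54 in si-FTO. GSS, glutathione synthetase, had 70.0 and 117 TPM, a log2 ratio of 0.74.

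GSR, which returns oxidized glutathione to its reduced form, had 78.1 TPM in si-NC against 60.9 TPM in si-FTO, with a log2 ratio of -0.35. SLC7A11, the light chain of the cystine importer, was the lowest of the 5 genes in both groups, at 4.36 and 2.50 TPM. It is a known NRF2 target and stood at a log2 ratio of -0.62. The summed level of the 5 genes was 189 TPM in si-NC against 222 TPM in si-FTO.

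In the thioredoxin system, the reductase stood apart from its substrate. TXNRD1, the cytosolic selenoprotein that reduces thioredoxin, had 99.9 TPM in si-NC against 409 TPM in si-FTO, 4.10-fold higher, with a log2 ratio of 2.02 above 95.3% of genes compared. TXN, thioredoxin itself, had 586 and 595 TPM, a log2 ratio of 0.02 that turned to -0.07 with quantile normalization. TXN over TXNRD1 was 5.87 in si-NC against 1.45 in si-FTO as a ratio of mean TPM. SRXN1, sulfiredoxin, which repairs overoxidized peroxiredoxins, had 44.9 and 85.5 TPM. Its log2 ratio of 0.92 became 1.08 after median-ratio scaling, past a size of 1. TXNRD1 lies at chr12:104609557-104744085 on the plus strand of GRCh37.

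Peroxiredoxins, the thiol peroxidases that clear most hydrogen peroxide in the cytosol and mitochondria, had the largest summed level of any role. PRDX1 ranked first among the 6 in both groups, at 885.5 TPM in si-NC against 1160.6 TPM in si-FTO, with a log2 ratio of 0.39. PRDX5, found in mitochondria, peroxisomes and cytosol, had 382 and 867 TPM, 2.27-fold higher, and was the only peroxiredoxin past a log2 ratio of 1, at 1.18. By level it was the fifth of the 6 in si-NC and the second in si-FTO, and its share of their summed TPM was 12.7% and 21.0%.

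PRDX2, a cytosolic form, had 391 TPM in si-NC against 632 TPM in si-FTO, with a log2 ratio of 0.69. PRDX6, which also has phospholipase activity, had 554 and 673 TPM, a log2 ratio of 0.28. PRDX4, the form of the endoplasmic reticulum, was the lowest of the 6 in both groups, at 323 and 380.1 TPM, a log2 ratio of 0.23. PRDX3, the mitochondrial form, had 469.9 and 420.0 TPM, and its log2 ratio of -0.16 turned to 0.01 after median-ratio scaling. The order of these levels carries no error, since the spread of the libraries is unknown.

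Among glutathione peroxidases, the secreted form stood out. GPX3, the enzyme of plasma and extracellular fluid, had 20.0 TPM in si-NC against 0.581 TPM in si-FTO, 34.4-fold lower, with a log2 ratio of -3.73, and 1.39% of the genes compared had a lower ratio. The si-FTO mean was close to the 0.5 TPM required for a fold, so the size is uncertain. The log2 ratio was -4.88 with 0.1 TPM added and -5.10 with nothing added. GPX3 lies at chr5:150400152-150408549 on the plus strand of GRCh37. GPX4, which reduces lipid hydroperoxides in membranes, had 432 and 497 TPM, a log2 ratio of 0.20. GPX1, the cytosolic enzyme, had 296 and 202 TPM, a log2 ratio of -0.55. GPX2, the form known from the gastrointestinal epithelium, had 0.246 and 0.146 TPM and was below the level for comparison.

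SOD1, the copper and zinc superoxide dismutase of the cytosol, had 503 TPM in si-NC against 279 TPM in si-FTO, 1.80-fold lower, with a log2 ratio of -0.85. CAT, catalase, the hydrogen peroxide enzyme of peroxisomes, had 49.0 and 74.6 TPM, a log2 ratio of 0.60. These stood in opposite directions, each within a size of 1.

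The 8 glutathione transferases summed to almost the same level in both groups, 1293 TPM in si-NC against 1291 TPM in si-FTO, and differed in which genes made up the sum. GSTP1, the pi class enzyme that many tumours express strongly, had 639.7 TPM in si-NC against 257 TPM in si-FTO, 2.49-fold lower, with a log2 ratio of -1.31. Its share of the sum was 49.5% in si-NC against 19.9% in si-FTO. GSTP1 lies at chr11:67351213-67354127 on the plus strand of GRCh37.

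The membrane-bound enzymes stood the other way. MGST3 had 124 TPM in si-NC against 264 TPM in si-FTO, with a log2 ratio of 1.09, and was the most abundant of the 8 in si-FTO. MGST1 had 94.0 and 194 TPM, a log2 ratio of 1.03 that was 0.98 with quantile normalization. MGST2, which can also make a leukotriene, had 47.5 and 57.2 TPM, a log2 ratio of 0.26.

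In the mu class, GSTM3 had 47.8 TPM in si-NC against 163 TPM in si-FTO, 3.42-fold higher, with a log2 ratio of 1.75. GSTM4 had 18.4 and 38.8 TPM, a log2 ratio of 1.03. GSTO1, the omega class enzyme that also reduces dehydroascorbate, had 184 and 207 TPM, a log2 ratio of 0.17. GSTK1, the kappa class enzyme of mitochondria and peroxisomes, had 139 and 110.5 TPM, a log2 ratio of -0.32. Hence 4 of the 8 were higher and 1 was lower by a log2 ratio of at least 1, or 50% and 12.5%, beside 11.4% and 17% of all genes, so the share lower was near that of all genes.

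**Figure D4:**
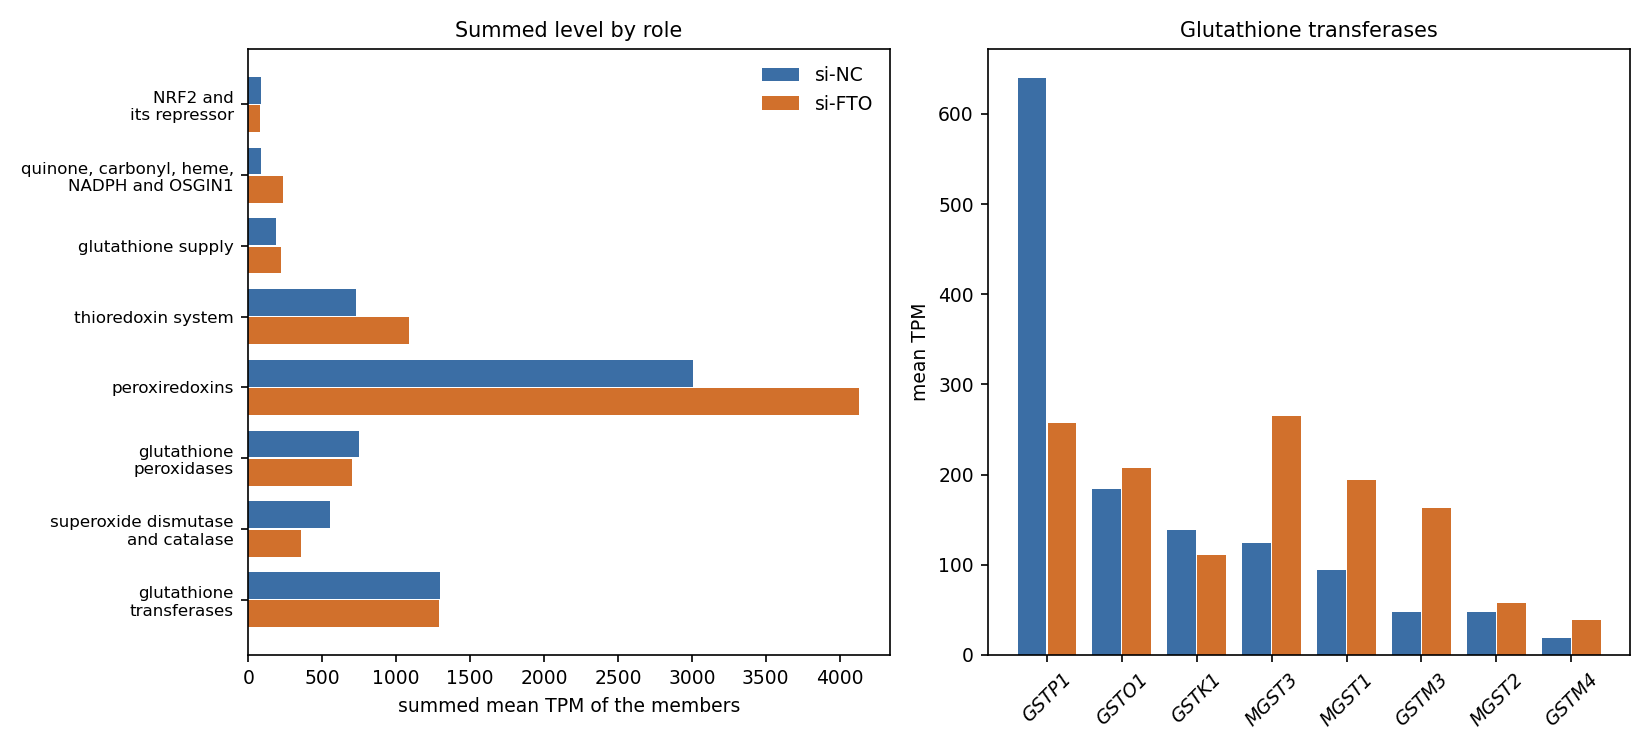
Left, mean TPM summed over the genes of each role in si-NC (blue) and si-FTO (orange). Right, mean TPM of each glutathione transferase, in the order of the si-NC level. The sum of the transferases was 1293 and 1291 TPM, while GSTP1 had 639.7 TPM in si-NC against 257 TPM in si-FTO.

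The neighbours of GSTM3 and GSTM4 were looked at after these values were seen. GSTM1 to GSTM5 lie together on chromosome 1 of GRCh37. GSTM2 had 44.7 TPM in si-NC against 1.25 TPM in si-FTO, 35.9-fold lower, while GSTM1 had 9.79 and 47.4 TPM, 4.85-fold higher. GSTM5 was under 0.05 TPM in both groups, at 0.0322 and 0.0429 TPM. Summed over the 5 genes, the cluster had 121 TPM in si-NC against 251 TPM in si-FTO. The coding sequences of GSTM1 and GSTM4 are identical at 92.1% of bases and those of GSTM1 and GSTM2 at 89.95%, with 72.6% for GSTM3 and GSTM4. Because 45.8% of the 50-base words of GSTM2 and 17.2% of those of GSTM4 occur in GSTM1, the separate values of these genes are uncertain.

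Other genes of the pathway were taken from lists of 115 symbols, of which 114 had a row and 99 were compared. These lists too were chosen with earlier results of these data known, so their shares are descriptions. Of the 99, 25 were higher and 22 lower by a log2 ratio of at least 1, or 25.3% and 22.2%, beside 11.4% and 17% of all genes. With at least 0.5 TPM in both groups, 20 of 90 were higher and 21 lower, or 22.2% and 23.3%, beside 9.42% and 11.8% of all such genes.

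Of 15 other regulators of NRF2, 2 were higher and 5 lower by that size, or 13.3% and 33.3%, beside 11.4% and 17% of all genes, so the share higher was near that of all genes. MAFK, a small MAF partner of NRF2, had 13.7 TPM in si-NC against 69.0 TPM in si-FTO. SQSTM1, the autophagy adaptor p62 that binds KEAP1, had 122 and 319 TPM. NFE2L3, a relative of NRF2, had 28.0 and 6.51 TPM. BTRC, a receptor of a separate ubiquitin ligase for NRF2, had 24.4 and 9.73 TPM. RBX1, the RING subunit shared by these ligases, had 168 and 75.6 TPM, and its log2 ratio of -1.14 was -0.97 after median-ratio scaling. The remaining lower genes, BACH2 and CUL3, were chosen after their values were seen. CUL3, the scaffold of the KEAP1 ubiquitin ligase, had 38.1 and 16.8 TPM, a log2 ratio of -1.13 that was -0.97 after median-ratio scaling. The other 8 of the 15 lay within a log2 ratio of 1, as NFE2L2 and KEAP1 did.

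Of 31 other known targets of NRF2, 28 were compared, with 10 higher and 4 lower and a median log2 ratio of 0.49. These are 35.7% and 14.3%, beside 11.4% and 17% of all genes, so the share lower was near that of all genes. FTH1, the ferritin heavy chain, had 587 TPM in si-NC against 3707 TPM in si-FTO, 6.31-fold higher. ALDH3A1, an aldehyde dehydrogenase, had 1.33 and 10.9 TPM, and ABCC3, an export pump for conjugates, had 0.0103 and 12.03 TPM. FECH, which inserts iron into heme, had 30.2 and 11.3 TPM. EPHX1, microsomal epoxide hydrolase, had 72.8 and 34.05 TPM, and its log2 ratio of -1.07 was -0.91 after median-ratio scaling. The remaining lower genes were CBR3 and NR0B1, chosen after their values were seen. Also chosen after their values were seen were FTL and TKT. FTL, the ferritin light chain, had 594 TPM in si-NC against 2362 TPM in si-FTO. TKT, transketolase, had 339 and 1008 TPM. Thus both ferritin chains were higher in si-FTO. The 31 genes summed to 3345 TPM in si-NC against 9141 TPM in si-FTO, and FTL was the most abundant of them in si-NC and FTH1 in si-FTO. Of the words of the FTH1 transcript, 41.3% occur in other genes, mostly pseudogenes, and 18.5% of those of FTL occur in FTLP3, so their levels are uncertain. ABCC3 reached 0.5 TPM only in si-FTO, and NR0B1, at 3.73 and 0.0638 TPM, only in si-NC.

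Other glutathione genes went both ways, with 7 of 23 higher and 7 lower, or 30.4% each, beside 11.4% and 17% of all genes. With at least 0.5 TPM in both groups, 3 of 19 were higher and 7 lower, or 15.8% and 36.8%, beside 9.42% and 11.8%, and the median log2 ratio was -0.31 in place of -0.06. GSTT2B and GSTT2, theta class transferases, had 0.0354 and 0.0329 TPM in si-NC and 34.3 and 12.2 TPM in si-FTO. These are near-identical copies that share 81.7% of the words of GSTT2, so each value alone is uncertain, and their sum was 0.0683 TPM in si-NC against 46.5 TPM in si-FTO. OPLAH, the oxoprolinase of glutathione turnover, was listed at 0 in si-NC and had 13.3 TPM in si-FTO. These 3 genes and ANPEP, chosen after its values were seen, reached 0.5 TPM only in si-FTO. Lower genes were GSTM2, given above, CBS, which forms cystathionine on the way to cysteine, and GSTA4, an alpha class transferase. CBS had 187 TPM in si-NC against 23.6 TPM in si-FTO, and a second annotated gene at the same place, whose transcripts hold all words of CBS, had 126 and 14.8 TPM, so the value of CBS is uncertain. GSTA4 had 62.3 and 7.57 TPM. Further genes were chosen after their values were seen. CTH, which splits cystathionine to give cysteine, stood opposite to CBS, at 19.3 TPM in si-NC against 90.8 TPM in si-FTO. GLO1, which clears methylglyoxal with glutathione, had 547 and 176 TPM. SLC3A2, the heavy chain that pairs with SLC7A11, had 206 and 527 TPM.

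Other thioredoxin and glutaredoxin genes numbered 17, with 5 higher and 4 lower, or 29.4% and 23.5%, beside 11.4% and 17% of all genes. TXNIP, the inhibitor of thioredoxin, had 17.6 TPM in si-NC against 80.4 TPM in si-FTO. TXNRD2, the mitochondrial thioredoxin reductase, had 37.7 and 121 TPM, next to the 4.10-fold difference of cytosolic TXNRD1. NNT, which forms NADPH in mitochondria, had 41.9 and 107 TPM. SESN2 and SESN3, sestrins, had 50.5 and 12.9 TPM in si-NC and 11.6 and 2.79 TPM in si-FTO. MSRB1, a selenoprotein that repairs oxidized methionine, had 79.6 and 32.2 TPM. The remaining genes past a log2 ratio of 1, chosen after their values were seen, were TXNRD3 and GLRX, higher, and TXNL1, lower.

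Of 13 other genes of superoxide and reactive oxygen, 8 were compared, of which 1 was higher by a log2 ratio of at least 1 and 0 were lower, or 12.5% and 0%, beside 11.4% and 17% of all genes. All 8 ratios were above 0, with a median of 0.51. NOXO1, CYBB and DUOX1 reached 0.5 TPM only in si-FTO, so their ratios could only be above 0. With at least 0.5 TPM in both groups, 1 of 5 was higher and 0 lower, or 20% and 0%. Among all such genes the shares were 9.42% and 11.8%. Of the genes too low to compare, NOX1, NOX4, DUOX2 and DUOXA2 were lower in si-FTO, and SOD3 was listed at 0 in both. The gene past a size of 1 was AIFM2, the ferroptosis suppressor FSP1, with 2.11 TPM in si-NC against 38.6 TPM in si-FTO, 18.3-fold higher. After median-ratio scaling, 2 of the 8 were higher and 0 lower, beside 13.1% and 14.6% of all genes. Most of this list was low, with 8 of the 13 genes under 1 TPM in each group. Of the 8 genes for selenoprotein synthesis, on which TXNRD1 and the glutathione peroxidases depend, 0 were higher and 2, or 25%, lower, beside 11.4% and 17% of all genes. SEPHS2, selenophosphate synthetase, had 183 TPM in si-NC against 64.2 TPM in si-FTO, 2.86-fold lower, and PSTK, chosen after its values were seen, had 9.60 and 3.22 TPM.

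**Figure D5:**
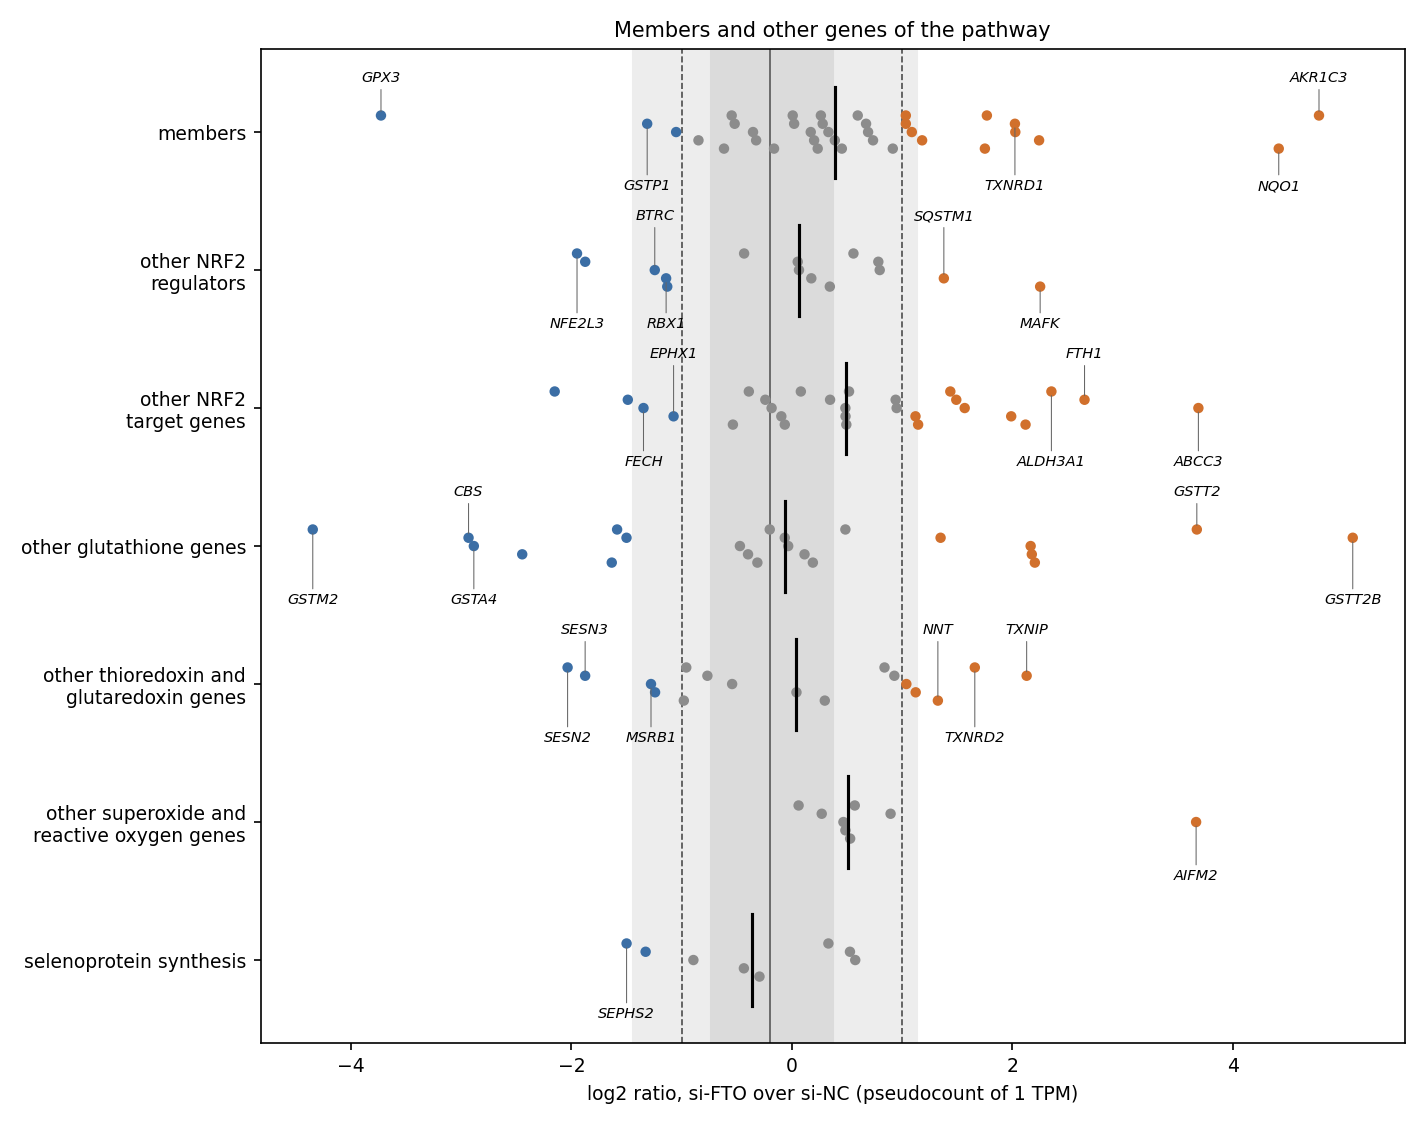
Log2 ratio of si-FTO to si-NC for the genes of the list (members) and 6 lists of other pathway genes, with 1 point per gene compared, coloured where its size is at least 1, and a black bar at each list's median. Grey bands span the middle of all genes compared, from -0.74 to 0.38 (darker) and from -1.45 to 1.13 (lighter). AKR1B10 and OPLAH, listed at 0 in si-NC, have no point but count in the medians, and the highest points are GSTT2B, AKR1C3 and NQO1.

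Genes that overlap others add to the uncertainty, since the library kit keeps strand but the sources used here do not say whether counting used it. On the opposite strand, NFE2L2 overlaps HNRNPA3, with 264 TPM in si-NC against 180.5 TPM in si-FTO, and NFE2L3 overlaps HNRNPA2B1, with 863 and 798 TPM. MAFK overlaps TMEM184A, with 0.121 and 16.5 TPM, and GSTT2 overlaps DDT, with 327 and 298 TPM. MGST2 overlaps the histone pseudogene H3P16, with 50.2 and 53.3 TPM. MGST1 overlaps LMO3, with 1.73 and 0.253 TPM, and AIFM2 overlaps MACROH2A2, with 83.0 TPM in si-NC against 0.0494 TPM in si-FTO. On the same strand, TXNRD1 overlaps the pseudogene RPL18AP3, with 78.5 and 76.3 TPM, and PRDX2 overlaps HOOK2, with 14.98 and 23.97 TPM. OSGIN1 overlaps MLYCD, with 2.20 and 2.40 TPM.

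Words shared with other annotated genes bear on a few more values. Of the 50-base words of the SRXN1 transcript, 90.6% occur in another annotated gene with 0.119 TPM in si-NC against 0.391 TPM in si-FTO. Where that gene lies was not examined. For GPX1, 78.2% occur in other genes, with 61.8% in an annotated gene that had no matched row and 26.4% in the pseudogene GPX1P1, so its level is uncertain. For NQO1, 1.13% of words were shared with other genes, and for TXNRD1, GPX3, GSTP1, HMOX1, MGST1, MGST3 and PRDX5 the share was 0%.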

How the data were processed

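RNA-seq libraries of AGS cells, 3 si-NC and 3 si-FTO, were grouped by their titles. Per the study's methods, the authors mapped reads to hg19 with Bowtie and quantified them with RSEM, whereas the submitters' processing notes list HISAT2; the annotation and versions are not given in the sources used here. The deposited values are TPM, averaged by the authors over each group and with sums of 999970 for si-NC and 999957 for si-FTO; they keep no depth. The table's columns of log2 fold change, p-value and q-value, and a second table restricted by them, hold the authors' own comparison and were not used.

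A value of exactly 0.0001 was read as 0 and is described as listed at 0. Symbols came from a table of gene names, which matched 55726 of 58174 identifiers. The log2 ratio was log2((si-FTO + 1) / (si-NC + 1)), for genes that reached 0.5 TPM in either group's mean, and folds were taken only where both means reached 0.5. No test was possible. All 39 members were accounted for: those that reached 10 TPM in a group or whose log2 ratio was 1 or more in size are named by rule. Of each other list, the 3 largest ratios in each direction past that size are named among genes with at least 10 TPM. SLC7A11, GPX2, the neighbours in gene clusters and the overlapping genes fall outside this rule and were named after their values were seen. The members and lists were chosen with earlier results of these data known.

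Alternatives were another pseudocount, other filters and thresholds, median-ratio scaling, quantile normalization and 0.0001 kept. Positions, transcripts and overlaps came from GRCh37 with GENCODE lifted to it, and promoters from RefSeq. Calculations used Python 3.11.15, numpy 2.4.6, pandas 2.3.3, biopython 1.88 and matplotlib 3.10.9, and were tested on simulated data.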

Additional observations from a re-analysis of the deposited data

How the results depend on the processing

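No paired analysis was possible because the deposited values are 1 mean per group. For the same reason, leaving out each replicate and the fit with the replicate number as a block were not run, and the unknown depth and missing error between libraries limit every value.

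The 12 genes higher and 3 genes lower by a log2 ratio of at least 1 were 17 and 5 at a threshold of 0.58 (18.9% and 31.5% of all genes), and 6 and 1 at a threshold of 2 (4.76% and 6.06%), where the threshold itself sets the count. After median-ratio scaling they were 13 and 2 (13.1% and 14.6%). They were 12 and 3 with 0.1 TPM added (16% and 25.1%), with no filter on low values (4.02% and 6%) and with 0.0001 kept (16.6% and 26.1%). With a mean of at least 5 TPM they were 10 and 3 (13.3% and 17.4%), and with quantile normalization 11 and 3 (13.7% and 14.2%). Among genes with at least 0.5 TPM in both groups, 8 were higher and 3 lower (9.42% and 11.8%). That filter, added after seeing the data, leaves out the 4 aldo-keto reductases. The median log2 ratio of 0.39 was 0.56 after median-ratio scaling, which removes a shift of -0.17, and 0.28 with the filter on both groups.

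For 35 single genes under the scalings and pseudocounts tried, 137 values kept their side of the threshold; the filters leave a single gene's ratio as it is. The sizes of the AKR1C1, AKR1C2 and AKR1C3 ratios moved by over 1.5 times with the pseudocount. HMOX1 (median-ratio scaling) and MGST1 (quantile normalization) came within it, and SRXN1 (median-ratio scaling) passed it; the cause was not tested. Of ratios within the threshold, PRDX3 and TXN turned sign. By list, the medians of NFE2L2 with KEAP1, of SOD1 with CAT and of the other glutathione genes were -0.09, -0.12 and -0.06, and turned to 0.07, 0.04 and 0.10 after median-ratio scaling.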
